A study of Mus musculus with 4 samples.

Results

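The genes described here are Rag1, Rag2, Dntt, Arpp21, Cd24a, Marcks, Marcksl1, Pou2af1 and Mpzl2, which are used as genes of immature thymocytes. They are 9 of the 18193 genes that could be named on the array, with 28 of 45037 probe sets. They were picked by name with earlier results of the same 4 arrays in view, as genes high in the CD25+ cells that lack Foxp3 reporter signal. Their levels on these arrays are therefore a description and carry no test. A gene's level is that of its brightest probe set, by the mean of the 4 deposited columns, and its other probe sets are given as further readings.

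Developing T cells assemble their receptor genes by cutting DNA with the RAG1 and RAG2 proteins and joining the ends, and terminal deoxynucleotidyl transferase, the product of Dntt, adds untemplated bases at the joints. This machinery is shut down once a receptor has been selected, and the surface protein CD24 declines as cells mature into CD4+ CD8- or CD8+ CD4- thymocytes. CD25, the IL-2 receptor alpha chain, marks regulatory T cells and their CD4+ precursors that do not yet make Foxp3. It also marks much earlier thymocytes that have neither CD4 nor CD8.

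All 4 populations were CD4+ CD8- thymocytes of female mice of 6 to 8 weeks, sorted with magnetic beads and then by flow cytometry. GFP- CD25+ cells, Foxp3-fusion cells (GFP+) and GFP- CD25- cells came from Foxp3(gfp/gfp) mice, whose Foxp3 alleles both encode a GFP-Foxp3 fusion protein, backcrossed from 129/Sv to C57BL/6 for 4 to 6 generations. Foxp3-null cells were the GFP+ cells of Foxp3(gfpko/wt) mice, which by that name carry a GFP-marked knockout allele of this X-linked gene beside a wild-type one, backcrossed for 2 generations. The sample's own description is that of the Foxp3(gfp/gfp) mice, and only its title and strain entry place it apart, a doubt that bears on every Foxp3-null value. Each population had 1 Affymetrix mouse 430 2.0 array, so no value has a replicate check, an error or a p-value, and precision is limited by that number. The sources used here do not say whether animals were pooled. Genotype, backcross and array cannot be told apart in any comparison with Foxp3-null cells.

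Signals are log2 values, quantile normalized over the 4 arrays. The floor of 4.27 log2 is the level that 90% of the probe sets of genes silent in T cells stay under, taken on the array where it is highest. Lower readings count as not measured, and a fold against one is written as "at least". Pearson's r between arrays over probe sets, which are not independent, ran from 0.965 to 0.984. Foxp3 read 2.88 log2 in the GFP- CD25+ cells, 7.27 in Foxp3-null cells, 8.82 in Foxp3-fusion cells and 2.76 in GFP- CD25- cells. The sources used here do not say which part of Foxp3 the knockout allele lacks, so this reading is no check of that label. The gap between the actin control probe sets of the 3' and 5' ends was 9.29 log2 in GFP- CD25+, 7.10 in Foxp3-null, 5.02 in Foxp3-fusion and 8.37 in GFP- CD25- cells, on deposited values. That is a measure of how far amplified RNA was shortened from its 5' end.

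Of the 9 genes, 8 were above the floor in GFP- CD25+, 5 in Foxp3-null, 3 in Foxp3-fusion cells and 5 in GFP- CD25- cells. Of all 18193 genes, 7587, 7738, 7567 and 7504 were above it in the same order. GFP- CD25+ cells gave the highest reading for 7 of the 9 genes, which were picked as high there. The exceptions were Rag2, which was under the floor everywhere, and Marcks, which differed from GFP- CD25- cells by -0.11 log2. The name "high in CD25+ GFP-" therefore does not hold for these 2 genes. Rag1 and Arpp21 passed the floor only through the GFP- CD25+ array, so their direction was fixed by that filter. Foxp3-fusion cells were lowest for the 4 genes where that can be read, Cd24a, Marcks, Marcksl1 and Pou2af1, and for the others at least 1 more array was under the floor. For Cd24a, Marcksl1 and Pou2af1 the arrays ranked in the order GFP- CD25+, GFP- CD25-, Foxp3-null and Foxp3-fusion, which is also the order of the actin 3' to 5' gap. The same gap for Gapdh was 6.51 log2 in GFP- CD25+, 4.93 in Foxp3-null, 4.60 in Foxp3-fusion and 6.56 in GFP- CD25- cells, and the part of RNA quality in the result was not tested. In sorted bulk populations, fewer cells that contain a transcript and less of it per cell cannot be told apart.

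**Figure D1:**
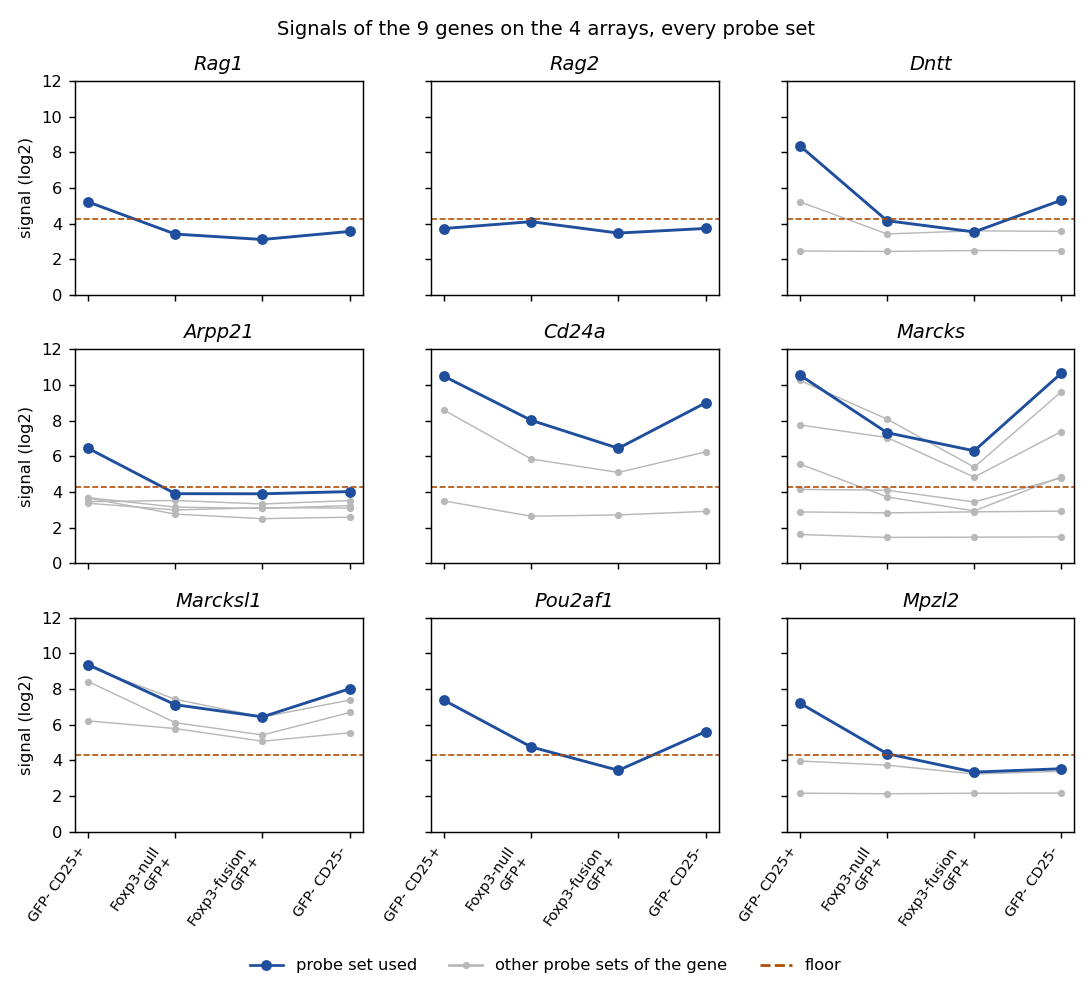
Signal (log2, vertical axis) of every probe set of the 9 genes on each of the 4 arrays, with the probe set used in blue, the gene's other probe sets in grey and the floor of 4.27 log2 as a dashed line. The blue lines are highest in GFP- CD25+ cells for 7 genes, whereas Rag2 stays under the floor and Marcks is level with GFP- CD25- cells.

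Dntt stood out most among the recombination genes. Its probe set 1449757_x_at read 8.37 log2 in the GFP- CD25+ cells, 4.16 in Foxp3-null cells, 3.54 in Foxp3-fusion cells and 5.32 in GFP- CD25- cells. Only the 2 GFP- populations were above the floor, and the CD25+ one was well above the other. Dntt was thus at least 17.1-fold higher in GFP- CD25+ than in Foxp3-null cells, at least 17.1-fold higher than in Foxp3-fusion cells and 8.28-fold higher than in GFP- CD25- cells. A second Dntt probe set, 1420166_at, read 5.22 log2 in GFP- CD25+ cells against 3.42 in Foxp3-null, 3.59 in Foxp3-fusion and 3.57 in GFP- CD25- cells, so it had signal in GFP- CD25+ cells and was under the floor elsewhere. The third, 1450545_a_at, was under the floor on all arrays, between 2.44 and 2.49 log2.

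Rag1 encodes the catalytic subunit of the recombinase. Its only probe set, 1450680_at, read 5.22 log2 in the GFP- CD25+ cells, 3.41 in Foxp3-null cells, 3.11 in Foxp3-fusion cells and 3.56 in GFP- CD25- cells. A signal was present in GFP- CD25+ cells alone, 0.95 log2 over the floor, which makes Rag1 at least 1.93-fold higher there than in each other population. Without the floor the log2 differences were 1.80 over Foxp3-null, 2.11 over Foxp3-fusion and 1.65 over GFP- CD25- cells. For Rag2, the partner protein that helps RAG1 bind and cut, the single probe set 1418065_at read 3.73 log2 in the GFP- CD25+ cells, 4.11 in Foxp3-null cells, 3.47 in Foxp3-fusion cells and 3.73 in GFP- CD25- cells. All 4 readings were under the floor and the highest was in Foxp3-null cells, so Rag2 was not measured and cannot be compared with Rag1. Iftap, whose annotated span overlaps that of Rag2 in GRCm38.p6, was also under the floor on every array.

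The start-site windows of these 3 genes are shown because they encode the recombinase and the transferase, of which Rag1 and Dntt had signal in GFP- CD25+ cells and Rag2 was not measured. They are RefSeq sequences of GRCm38.p6, each of 300 bases (250 before and 50 after the annotated start) and written 5' to 3' on the gene's strand. Capitals mark matches, on both strands, to the E-box letters CANNTG, the RUNX letters TGTGGT, the Ikaros letters TGGGAA and the octamer letters ATGCAAAT.
Rag1, chr2:101649483-101649782, minus strand: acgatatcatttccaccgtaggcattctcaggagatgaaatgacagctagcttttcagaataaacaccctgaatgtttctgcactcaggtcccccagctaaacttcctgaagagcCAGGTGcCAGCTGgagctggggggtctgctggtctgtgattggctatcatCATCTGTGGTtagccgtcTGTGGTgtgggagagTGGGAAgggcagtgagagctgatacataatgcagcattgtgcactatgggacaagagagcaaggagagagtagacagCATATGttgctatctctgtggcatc
Rag2, chr2:101624462-101624761, plus strand: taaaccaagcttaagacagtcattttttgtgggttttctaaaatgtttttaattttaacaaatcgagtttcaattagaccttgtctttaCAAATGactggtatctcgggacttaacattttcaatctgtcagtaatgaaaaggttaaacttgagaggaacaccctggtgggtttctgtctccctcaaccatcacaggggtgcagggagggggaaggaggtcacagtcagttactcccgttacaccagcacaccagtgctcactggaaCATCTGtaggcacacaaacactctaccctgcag
Dntt, chr19:41029025-41029324, plus strand: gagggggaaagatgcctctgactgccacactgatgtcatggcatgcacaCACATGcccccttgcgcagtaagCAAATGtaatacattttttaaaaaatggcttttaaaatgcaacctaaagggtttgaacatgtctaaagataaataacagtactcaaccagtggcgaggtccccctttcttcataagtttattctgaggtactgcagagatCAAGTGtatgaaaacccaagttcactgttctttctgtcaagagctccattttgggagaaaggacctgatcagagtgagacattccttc
The Rag1 window held 4 E-box matches, 2 RUNX matches, of which 1 overlaps an E-box, and 1 Ikaros match. The Rag2 window held 2 E-box matches and the Dntt window 3, with none of the other motifs in either. Of 32851 RefSeq windows of this length, 72.3% held an E-box match, 16.8% a RUNX match, 25.6% an Ikaros match and 1.74% an octamer match, and 1.81% held at least 2 RUNX matches. A match describes the letters and shows no binding.

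Cd24a, which encodes the heat-stable antigen CD24 on the thymocyte surface, was measured on all 4 arrays. Its probe set 1437502_x_at read 10.49 log2 in the GFP- CD25+ cells, 8.02 in Foxp3-null cells, 6.45 in Foxp3-fusion cells and 8.99 in GFP- CD25- cells. The 4 populations were each about 1 log2 unit or more apart. Cd24a was 5.54-fold higher in GFP- CD25+ than in Foxp3-null cells, 16.4-fold higher than in Foxp3-fusion cells and 2.81-fold higher than in GFP- CD25- cells. A second probe set, 1448182_a_at, gave the same order of the arrays, at 8.59, 5.85, 5.09 and 6.24 log2 in GFP- CD25+, Foxp3-null, Foxp3-fusion and GFP- CD25- cells. On it the difference from GFP- CD25- cells was larger, 2.35 against 1.49 log2. The third, 1416034_at, was under the floor everywhere.

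Mpzl2 encodes EVA1, a small adhesion protein of the myelin P0 family found on thymocytes and thymic epithelium. Its probe set 1416236_a_at read 7.20 log2 in the GFP- CD25+ cells, 4.36 in Foxp3-null cells, 3.33 in Foxp3-fusion cells and 3.52 in GFP- CD25- cells. Signal was thus clear in GFP- CD25+ cells only, with Foxp3-null cells 0.09 log2 over the floor. Mpzl2 was 7.14-fold higher in GFP- CD25+ than in Foxp3-null cells and at least 7.61-fold higher than in Foxp3-fusion or GFP- CD25- cells. Both other Mpzl2 probe sets stayed under the floor on all arrays, with 3.96 log2 in GFP- CD25+ cells as the highest reading. Of the related genes, Mpzl1 was at the floor or under it, with 4.28 log2 in GFP- CD25+ cells as its highest reading, and Mpzl3 was under it everywhere.

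Marcks encodes a protein kinase C substrate that links the plasma membrane to actin, and it had the widest range of the 3 genes above the floor on all arrays. Its probe set 1456700_x_at read 10.55 log2 in the GFP- CD25+ cells, 7.32 in Foxp3-null cells, 6.31 in Foxp3-fusion cells and 10.67 in GFP- CD25- cells. The GFP- populations were alike and both GFP+ populations were low. Marcks was 9.40-fold higher in GFP- CD25+ than in Foxp3-null cells and 19.0-fold higher than in Foxp3-fusion cells, but 1.08-fold lower than in GFP- CD25- cells.

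The 6 other Marcks probe sets did not give 1 size. On 1456028_x_at GFP- CD25+ cells were 2.17 log2 over Foxp3-null, 4.86 over Foxp3-fusion and 0.63 over GFP- CD25- cells. On 1415973_at the same differences were 0.71, 2.93 and 0.37 log2, so the gap to Foxp3-null cells was much smaller there. Of the rest, 1415972_at was 1.29 log2 over the floor in GFP- CD25+ cells and under it in both GFP+ populations. The probe set 1415971_at passed the floor in GFP- CD25- cells only, at 4.79 log2, and the other 2 were under it on every array. On the 3 brightest probe sets both GFP- populations exceeded both GFP+ populations, whereas the difference between the GFP- populations was below 1 log2 unit on each and changed sign between them.

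Marcksl1 encodes the smaller relative of MARCKS. Its probe set 1437226_x_at read 9.36 log2 in the GFP- CD25+ cells, 7.11 in Foxp3-null cells, 6.43 in Foxp3-fusion cells and 8.01 in GFP- CD25- cells. It differed from Marcks in that the CD25+ cells exceeded the GFP- CD25- cells, by 2.55-fold, and the folds over Foxp3-null and Foxp3-fusion cells were 4.76 and 7.63. All 4 Marcksl1 probe sets were above the floor on all arrays and highest in GFP- CD25+ cells. Over GFP- CD25- cells they gave differences of 0.67 to 1.88 log2, with 1415922_s_at the smallest in each of the 3 comparisons. Of the 7 protein kinase C genes listed beside the 2 substrates, none was 2-fold higher in GFP- CD25+ cells than in another population. Prkcb differed by -1.37 log2 from Foxp3-null cells, and Prkch by -1.38 from Foxp3-fusion cells. With the median over probe sets Prkcb came to -0.36.

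Pou2af1 encodes OCA-B, a coactivator of octamer-binding POU factors that is best known from B cells. Its only probe set, 1416957_at, read 7.36 log2 in the GFP- CD25+ cells, 4.74 in Foxp3-null cells, 3.43 in Foxp3-fusion cells and 5.60 in GFP- CD25- cells. The first was 1.76 log2 over the next, and Foxp3-fusion cells were under the floor. Pou2af1 was 6.14-fold higher in GFP- CD25+ than in Foxp3-null cells, at least 8.52-fold higher than in Foxp3-fusion cells and 3.39-fold higher than in GFP- CD25- cells. Of the other POU genes read, Pou2f2 and Pou2f3 were under the floor on every array and Pou6f1 lay between 4.79 and 5.08 log2. Pou2f1 was not among the genes read, so the partners of OCA-B were not surveyed in full. Its start-site window is shown since octamer letters were searched for; it held 2 E-box matches and no octamer, RUNX or Ikaros match.
Pou2af1, chr9:51213440-51213739, plus strand: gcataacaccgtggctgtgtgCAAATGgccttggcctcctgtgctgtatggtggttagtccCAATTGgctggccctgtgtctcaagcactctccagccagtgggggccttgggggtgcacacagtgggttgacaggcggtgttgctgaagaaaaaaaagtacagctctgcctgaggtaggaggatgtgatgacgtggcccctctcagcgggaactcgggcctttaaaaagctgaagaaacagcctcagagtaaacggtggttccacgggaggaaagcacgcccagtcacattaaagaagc

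Since Pou2af1 is a B cell gene and Rag1 and Dntt are active in developing B cells too, B cell markers were read on the same arrays. Of 11 B cell markers, 2 were above the floor in GFP- CD25+ cells, 2 in Foxp3-null, 1 in Foxp3-fusion and 2 in GFP- CD25- cells. Their summed linear signal was 169 in the GFP- CD25+ cells, 174.3 in Foxp3-null cells, 127.4 in Foxp3-fusion cells and 126.1 in GFP- CD25- cells. The markers above the floor were Ms4a1 and Igll1, and Cd79a, Cd79b, Pax5, Ebf1 and Vpreb1 were under it on every array. Igll1, part of the surrogate light chain, read 6.19 log2 in GFP- CD25+, 5.90 in Foxp3-null, 5.36 in Foxp3-fusion and 5.39 in GFP- CD25- cells, a range of less than 1 log2 unit. Ms4a1, which encodes CD20, read 4.99 log2 in GFP- CD25+, 5.63 in Foxp3-null, 3.92 in Foxp3-fusion and 4.51 in GFP- CD25- cells, with its highest reading in Foxp3-null cells. The part of B cells in the levels of the 9 genes was not tested.

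Arpp21 encodes a phosphoprotein with an RNA-binding R3H domain, of which a long form, TARPP, is known from immature thymocytes. Its probe set 1442121_at read 6.45 log2 in the GFP- CD25+ cells, 3.90 in Foxp3-null cells, 3.90 in Foxp3-fusion cells and 4.02 in GFP- CD25- cells. Only GFP- CD25+ cells were above the floor, so Arpp21 was at least 4.52-fold higher there than in each other population. The 4 further Arpp21 probe sets were under the floor on all arrays. Of them 1419028_at came closest to the pattern, at 3.65 log2 in GFP- CD25+ cells against 2.76 in Foxp3-null, 2.50 in Foxp3-fusion and 2.58 in GFP- CD25- cells. The related gene R3hdm2 was 1.24, 2.11 and 1.40 log2 higher in GFP- CD25+ than in Foxp3-null, Foxp3-fusion and GFP- CD25- cells. R3hdm1 was within 0.36 log2 in all 3 comparisons on the probe set used. With the median over its probe sets R3hdm1 came to 1.07 log2 over Foxp3-null and -0.52 over GFP- CD25- cells. Arpp19, a phosphoprotein of another family despite its name, was 1.43 log2 higher than in Foxp3-fusion cells on the probe set used and differed by -1.21 log2 with the median of its probe sets.

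**Figure D2:**
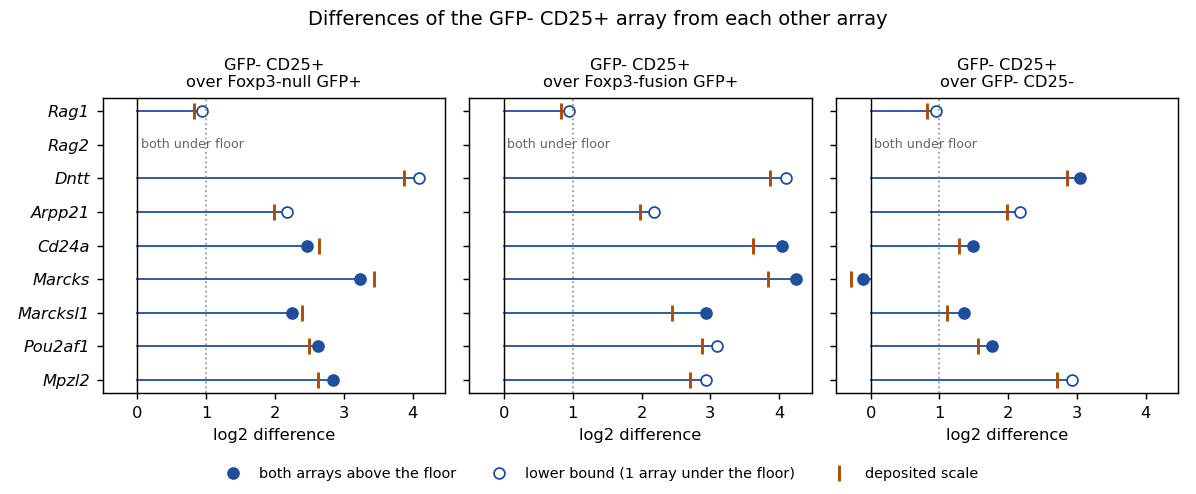
Log2 difference (horizontal axis) of GFP- CD25+ cells from Foxp3-null, Foxp3-fusion and GFP- CD25- cells for the 9 genes. Filled points have both arrays above the floor, open points are lower bounds, the orange ticks are deposited values without quantile normalization and the dotted line marks 2-fold. Marcks lies at -0.11 in the comparison with GFP- CD25- cells and Rag1 at 0.95 in all 3.

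Read as a list, 7 of 8 measured genes were at least 2-fold higher in GFP- CD25+ than in Foxp3-null cells, where 7.38% of all measured genes were. Over Foxp3-fusion cells the count was also 7 of 8, beside 8.22% of all genes, and over GFP- CD25- cells it was 6 of 8, beside 4.18%. The median differences were 2.54 log2 over Foxp3-null, 3.01 over Foxp3-fusion and 1.63 over GFP- CD25- cells, with bounds entered at their value, and the medians of all measured genes were -0.10, 0.10 and 0.10. The genes were chosen on these contrasts, so the counts describe the choice and support nothing. Direction was also fixed wherever only the GFP- CD25+ array passed the floor. That held for Rag1 and Arpp21 in all 3 comparisons and for Dntt over both GFP+ populations. It also held for Mpzl2 over Foxp3-fusion and GFP- CD25- cells, and for Pou2af1 over Foxp3-fusion cells. On the deposited scale the counts were again 7, 7 and 6, beside 8.26%, 3.29% and 2.75% of all genes. Among all genes that were 2-fold apart, 46.1%, 41.2% and 47.6% were higher in GFP- CD25+ cells in these 3 comparisons, and 56.7%, 13.3% and 27.2% on the deposited scale. Dntt, Arpp21, Cd24a, Marcksl1, Pou2af1 and Mpzl2, 6 of the 9, were at least 2-fold higher than in each of the 3 other populations, as were 84 of 7676 genes measured in all 3 comparisons (1.09%).

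For these counts in GFP- CD25+ cells the choice of probe set mattered more than the scale. Of the 9 probe sets used, 4 have names ending in _x_at (Dntt, Cd24a, Marcks and Marcksl1) and 1 in _a_at (Mpzl2), classes that can match several transcripts. Without probe sets of such classes, 5 genes were measured, of which 2 were at least 2-fold higher than in Foxp3-null cells, 3 than in Foxp3-fusion cells and 2 than in GFP- CD25- cells. Of the 19 probe sets not used, 9 were above the floor on at least 1 array, and 8 of these 9 were highest in GFP- CD25+ cells. The exception was Marcks 1415971_at. Of those measured in each comparison, 5 of 8 were at least 2-fold higher in GFP- CD25+ than in Foxp3-null cells, 7 of 8 than in Foxp3-fusion cells and 3 of 9 than in GFP- CD25- cells. Most of the 9 were of Marcks or Marcksl1. Dntt 1420166_at passed the floor only through the GFP- CD25+ array, so its direction was fixed. The same shares over all probe sets were not taken, and these counts describe the 9 probe sets only.

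Between the 3 other populations the genes also differed. Foxp3-null and Foxp3-fusion cells were set side by side because both were GFP+. By their names they differ in whether the Foxp3 locus makes Foxp3 protein, which was not measured here. Backcross and array differ between them as well. Of 5 genes measured there, Cd24a was 2.97-fold and Marcks 2.02-fold higher in Foxp3-null cells, beside 9.09% of all genes that were 2-fold higher. Marcksl1 differed by 0.68 log2. Pou2af1 and Mpzl2 were measured in this comparison only through the Foxp3-null array, so their direction was fixed by that filter, on the deposited scale too. On the deposited scale none of the 5 reached 2-fold on the probe set used, beside 3.57% of all genes, with Cd24a at 0.98, Marcks at 0.40 and Marcksl1 at 0.06 log2. Of all genes 2-fold apart, 49.3% were higher in Foxp3-null cells, and 15.2% on the deposited scale. Other Marcks probe sets kept a difference on both scales, with 1456028_x_at at 2.69 log2 (2.24 deposited) and 1415973_at at 2.22 (1.84 deposited). For Cd24a the second probe set gave 0.75 log2 (0.41 deposited), under 2-fold on both.

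Both GFP+ populations were compared with GFP- CD25- cells, which hold most ordinary CD4+ CD8- thymocytes. These 2 comparisons share the GFP- CD25- array. In Foxp3-null cells 2 of 6 measured genes were at least 2-fold lower, beside 7.61% of all genes, namely Marcks at 10.1-fold and Dntt at 2.07-fold or more. In Foxp3-fusion cells all 5 measured genes were at least 2-fold lower, beside 5.49% of all genes. They were Marcks at 20.5-fold, Cd24a at 5.84-fold, Marcksl1 at 2.99-fold, Pou2af1 at no less than 2.51-fold and Dntt at no less than 2.07-fold. Dntt was measured in both comparisons, and Pou2af1 in that with Foxp3-fusion cells, only through the GFP- CD25- array. Their direction was fixed by that filter, on the deposited scale too. On the deposited scale 4 of 6 were lower in Foxp3-null cells, since Cd24a and Marcksl1 moved past 2-fold at -1.35 and -1.28 log2, beside 11.9% of all genes, and again 5 of 5 in Foxp3-fusion cells, beside 3.77%. Of all genes 2-fold apart from GFP- CD25- cells, 58.6% were higher in Foxp3-null cells (31.1% deposited) and 65% in Foxp3-fusion cells (79.9% deposited).

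Other genes known from immature thymocytes did not share the pattern as a list. Of 26 such genes listed, 24 were named on the array and 16 were measured. In GFP- CD25+ over Foxp3-null cells 3 of the 16 were at least 2-fold higher and 3 lower, over Foxp3-fusion cells 4 were higher and 4 lower, and over GFP- CD25- cells 1 was higher and 5 were lower. Over all measured genes 7.38%, 8.22% and 4.18% were at least 2-fold higher in these comparisons, and 8.64%, 11.8% and 4.6% lower. The list medians were 0.11, 0.28 and -0.57 log2, and 0.15, -0.17 and -0.82 on the deposited scale, where the sign over Foxp3-fusion cells is turned. Bcl6, a transcriptional repressor, was the 1 gene higher in all 3 comparisons, at 1.02, 2.22 and 1.49 log2 over Foxp3-null, Foxp3-fusion and GFP- CD25- cells. Taking the median over its probe sets left 1.09 log2 over Foxp3-fusion and 0.74 over GFP- CD25- cells. Ccr9, the receptor for the thymic chemokine CCL25, was 2.04 log2 higher than in Foxp3-fusion cells but differed by -2.10 from GFP- CD25- cells. Cd2, an adhesion receptor gene, differed by -1.54, -2.48 and -0.42 log2 from Foxp3-null, Foxp3-fusion and GFP- CD25- cells. It stands in the list but is not confined to immature thymocytes, so its direction says little about them. Ets2, a transcription factor gene, was under the floor in GFP- CD25+ cells on the probe set used. There it differed from GFP- CD25- cells by at least -2.23 log2, a bound. With the median over probe sets the difference was -0.0024 log2.

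Genes that join the cut DNA ends did not follow Rag1 and Dntt either. Of 12 named, 9 were measured, with medians of -0.02 log2 over Foxp3-null, -0.04 over Foxp3-fusion and 0.13 over GFP- CD25- cells. In these comparisons 0, 1 and 0 were at least 2-fold higher, beside 7.38%, 8.22% and 4.18% of all genes. The counts of genes at least 2-fold lower were 1, 0 and 0, beside 8.64%, 11.8% and 4.6%. With so few genes these counts lie near the shares of all genes. Prkdc, the DNA-dependent protein kinase, differed by -1.39 log2 from Foxp3-null cells. Trp53bp1 was 1.03 log2 higher than in Foxp3-fusion cells on the probe set used and differed by -0.37 with the median of its probe sets. Of 21 listed regulators and neighbours of the Rag genes, 20 were named on the array and 19 measured. At least 2-fold higher were 3 over Foxp3-null, 2 over Foxp3-fusion and 2 over GFP- CD25- cells, beside the 7.38%, 8.22% and 4.18% of all genes, and 1, 0 and 3 were lower, beside 8.64%, 11.8% and 4.6%. Id2, an inhibitor of E proteins, differed by -2.74 log2 from GFP- CD25- cells and by 1.40 from Foxp3-fusion cells. Myb, a transcription factor gene, differed by 2.47 log2 from GFP- CD25- cells and by 1.25 from Foxp3-null cells. Prr5l, which lies near the Rag genes, differed by -1.16 log2 from Foxp3-null cells and by at least 1.76 from Foxp3-fusion and GFP- CD25- cells. Ikzf3, which encodes the Ikaros relative Aiolos, was 1.51 log2 higher than in Foxp3-null cells, 0.57 higher than in Foxp3-fusion cells and 0.94 higher than in GFP- CD25- cells. With the median over probe sets Ikzf3 came to -0.040 over Foxp3-null and -0.22 over GFP- CD25- cells.

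Some genes of mature CD4+ CD8- or CD8+ CD4- thymocytes were lower in GFP- CD25+ cells. Of 16 measured, 6 were at least 2-fold lower than in Foxp3-null cells, 7 than in Foxp3-fusion cells and 4 than in GFP- CD25- cells, and none was 2-fold higher in any of the 3. The shares of all measured genes that were 2-fold lower were 8.64%, 11.8% and 4.6%. The list medians were -0.81, -0.61 and -0.65 log2, and -0.66, -1.03 and -0.89 on the deposited scale, where 1 gene was 2-fold higher than in Foxp3-null cells. H2-D1, a class I major histocompatibility gene, differed by -2.03, -3.11 and -1.23 log2, and Slfn1 by -2.46, -1.88 and -1.55, from Foxp3-null, Foxp3-fusion and GFP- CD25- cells. Il7r, the IL-7 receptor alpha chain gene, differed by -3.02 log2 from GFP- CD25- cells. Gimap3, a small GTPase gene of lymphocytes, differed by -1.15, -1.91 and -0.97 log2 in that order. With the median over probe sets H2-D1 came to -0.49, -1.46 and -0.09 log2 and Slfn1 to -0.92, -0.56 and -0.39, so Slfn1 was then under 2-fold in all 3 comparisons and H2-D1 in 2. Of 11 measured genes of early positive selection, 1 was at least 2-fold higher and 1 lower over Foxp3-null cells, 0 and 1 over Foxp3-fusion cells, and 1 and 3 over GFP- CD25- cells. Over all measured genes 7.38%, 8.22% and 4.18% were higher in these comparisons, and 8.64%, 11.8% and 4.6% lower. Cd69, Itm2a and Nab2 were the 3 lower than in GFP- CD25- cells and Gfi1 the higher one, whereas Nab2 was 2.77-fold higher than in Foxp3-null cells.

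**Figure D3:**
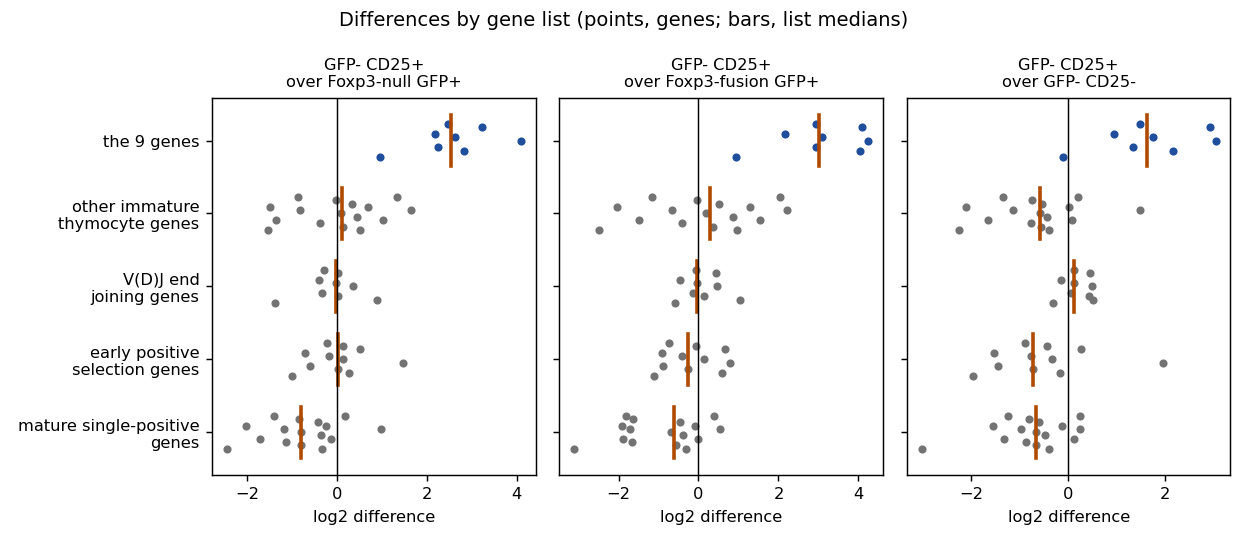
Log2 difference (horizontal axis) of GFP- CD25+ cells from Foxp3-null, Foxp3-fusion and GFP- CD25- cells for 5 gene lists. Points are measured genes, with bounds at their value, and orange bars are list medians. The 9 genes have medians of 2.54, 3.01 and 1.63, the other immature thymocyte genes 0.11, 0.28 and -0.57, and the mature genes -0.81, -0.61 and -0.65.

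Markers of cells outside the gate were read on each array. All 9 named T cell identity genes were above the floor on all arrays. For double-positive thymocytes, Ptcra and Cd8b1 were under the floor everywhere, and Cd8a, used in the sort, read 4.78 log2 in GFP- CD25+, 4.70 in Foxp3-null, 4.42 in Foxp3-fusion and 4.71 in GFP- CD25- cells. Of 9 early progenitor markers, the 7 other than Il2ra and Cd44 were under the floor on every array, Kit, Flt3, Hhex and Lyl1 among them. Il2ra, the gene of CD25, read 7.85 log2 in GFP- CD25+, 9.11 in Foxp3-null, 10.35 in Foxp3-fusion and 3.62 in GFP- CD25- cells. Both GFP+ populations thus had more of it than the GFP- CD25+ cells, and GFP- CD25- cells were under the floor. Cd44, an adhesion receptor gene that activated and regulatory T cells also express, read 9.82 log2 in GFP- CD25+, 8.06 in Foxp3-null, 10.35 in Foxp3-fusion and 8.46 in GFP- CD25- cells. It was 3.40-fold higher in GFP- CD25+ than in Foxp3-null cells and 2.57-fold higher than in GFP- CD25- cells, but differed by -0.52 log2 from Foxp3-fusion cells. Dendritic cell and macrophage markers summed to a linear signal of 193.1 in GFP- CD25+, 221.1 in Foxp3-null, 119.5 in Foxp3-fusion and 185.8 in GFP- CD25- cells, with Itgax and Cd74 under the floor. Of these, H2-Aa, a class II gene, read 6.60, 6.49, 5.16 and 6.68 log2 in that order, 2.72-fold higher in GFP- CD25+ than in Foxp3-fusion cells, and Csf1r and Adgre1 were highest in Foxp3-null cells at 5.50 and 5.21. Thymic epithelial markers summed to 268.7, 305, 232.6 and 253.5 in the same order, mostly from Epcam and Ly75, which were above the floor on all arrays. Krt8, Foxn1 and Psmb11 were under the floor, and the 3 named erythroid markers were under it everywhere. Gamma delta and NK markers summed to 49.2 in GFP- CD25+, 174.1 in Foxp3-null, 213.7 in Foxp3-fusion and 114 in GFP- CD25- cells, from 1 gene above the floor on each array. That was Zbtb16 in GFP- CD25- cells and elsewhere Il2rb, an IL-2 receptor chain gene, at 4.78 log2 in GFP- CD25+, 7.25 in Foxp3-null and 7.59 in Foxp3-fusion cells. CD8 T cell markers summed to 158.6, 204.2, 177.5 and 157.6 in that order. The part of such cells in the levels of the 9 genes was not tested.

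To see which genes had the most similar profile, each gene's values were centred on its mean over the 4 arrays and the root mean square distance to the median centred profile of all 9 genes was taken. That median was 1.88 log2 in the GFP- CD25+ cells, -0.54 in Foxp3-null cells, -1.30 in Foxp3-fusion cells and -0.03 in GFP- CD25- cells. Marcksl1 was the nearest of the 8 above the floor at 0.20 log2 and Marcks the farthest at 1.21. Among 8353 other genes above the floor, the 10 nearest were Sdad1, Fcgr2b, Urm1, Esr1, Hacd1, Tex9, Lmna, Ccdc59, Luc7l and Golga1, at 0.19 to 0.39 log2. Sdad1 read 8.94 log2 in GFP- CD25+, 6.98 in Foxp3-null, 6.23 in Foxp3-fusion and 7.36 in GFP- CD25- cells. Fcgr2b, the inhibitory receptor for IgG, read 7.61, 5.69, 5.28 and 5.82 log2 in the same order. Nearest to Rag1 alone were Fcgr2b, Srp19, Lman1, Eif2s2 and Acer2, at 0.08 to 0.15 log2. Distances use readings without the floor, and 3 of the 4 Rag1 readings were under it, as were many behind the median profile, so they say little about the true levels there. A likeness over 4 arrays is a description of those arrays, and none of these 14 genes is in the lists above. For Luc7l, Golga1, Eif2s2 and Lman1 other probe sets of the gene gave the opposite sign in at least 1 comparison. With the median over probe sets Sdad1 came to 0.98, 1.38 and 0.79 log2 over Foxp3-null, Foxp3-fusion and GFP- CD25- cells. Acer2 came to 0.24, 0.98 and 0.70 in that order, and Hacd1 to 0.60 over each GFP+ population. The likeness of these genes thus also depends on the probe set.

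**Figure D4:**
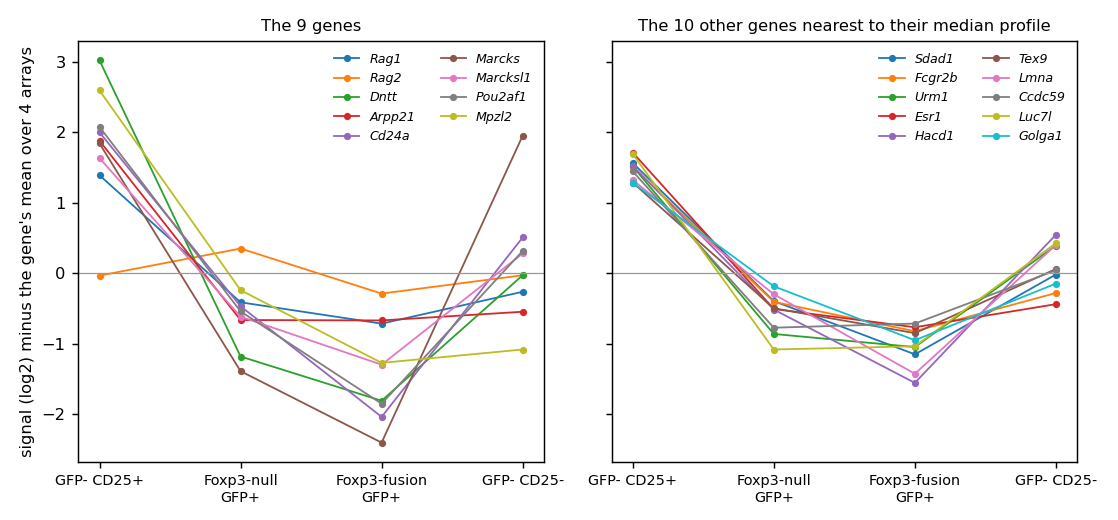
Signal (log2) minus the gene's own mean over the 4 arrays (vertical axis) for the 9 genes (left) and for the 10 other genes nearest to their median profile (right). Most lines peak in GFP- CD25+ cells, Rag2 stays near 0 and Marcks also peaks in GFP- CD25- cells.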

How the data were processed

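RNA of 4 sorted thymocyte populations was amplified in 2 rounds and hybridised to 1 array each, per the labels' protocols. The deposited table holds 1 log2 value per probe set and array. The log base is inferred from their range, and the authors' background correction, summarisation and normalization are not given in the sources used here. Because 90th percentiles ran from 7.54 to 8.16, values were quantile normalized after leaving out 64 control probe sets, and deposited values served as an alternative. The platform annotation named 1 gene for 34945 probe sets, several for 932 and none for 9160, and only the first were named. RefSeq (GRCm38.p6) held the gene identifiers of 34741 and changed no symbol. The floor came from 96 probe sets of silent tissue genes. With 1 array per group no test was made and 2-fold marked a difference. Named were all probe sets of the 9 genes, listed genes with up to 4 examples a list by size of difference, and the genes nearest in profile (10 to the median profile, 5 to Rag1). The genes and the 20 lists were chosen with earlier results of these data known, and some genes stand in more than 1 list. Start-site windows matched 6 of the 9 genes; Cd24a, Marcks and Mpzl2 had no entry. Alternatives were the deposited scale, centring on the median above the floor, no floor, a floor raised by 1 log2 unit, the median over a gene's probe sets, leaving out the _x_at, _s_at and _a_at classes, choosing probe sets on the normalized scale, thresholds of 3-fold and 1.5-fold, and, added after the data were seen, leaving out Rag2 and Marcks. The steps were tested on simulated data. Python 3.11.15, numpy 2.4.6 and pandas 2.3.3 were used.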

Additional observations from a re-analysis of the deposited data

How the results depend on the processing

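No paired analysis was possible because each group had 1 array, and no replicate could be left out. The number of arrays and the signal over background limit every value, most of all those that are bounds: all of Rag1 and Arpp21, Dntt over both GFP+ populations, Mpzl2 over Foxp3-fusion and GFP- CD25- cells, and Pou2af1 over Foxp3-fusion cells. The counts of genes at least 2-fold higher in GFP- CD25+ cells held within 1.5 times under the deposited and median-centred scales, without a floor, with a floor 1 log2 unit higher and at 3-fold and 1.5-fold. With the median over probe sets they were 4 of 6 over Foxp3-null, 4 of 6 over Foxp3-fusion and 3 of 6 over GFP- CD25- cells, and the medians over Foxp3-null and Foxp3-fusion cells were 1.76 and 2.11 log2. Without probe sets ending in _x_at, _s_at or _a_at the counts were 2, 3 and 2 of 5, and the medians 0.95, 2.18 and 0.95 log2. With no floor the median over Foxp3-fusion cells was 3.87 log2. For Foxp3-null over Foxp3-fusion cells the count of 2 became 0 on the deposited scale, with the median over probe sets and at 3-fold, 4 with no floor, and 1 without _x_at, _s_at and _a_at probe sets (median 1.35 log2) or without Rag2 and Marcks, the last chosen after the data were seen. Among named genes, direction turned with the median over probe sets for Ikzf3 (-0.040 over Foxp3-null cells), for Luc7l (-0.21 over Foxp3-null, -0.69 over Foxp3-fusion and -0.22 over GFP- CD25- cells), for Golga1 (-0.66 over Foxp3-fusion and -0.12 over GFP- CD25- cells) and, over Foxp3-fusion cells, for Arpp19 (-1.21), Lman1 (-0.039) and Trp53bp1 (-0.37). Without the 3 probe set classes it turned for Luc7l (-1.46, -0.59 and -0.86 in the same order), for Golga1 by the same values as above, and for Eif2s2 (-0.67 over Foxp3-null and -0.68 over Foxp3-fusion cells). The cause was not tested.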
